A study of Homo sapiens with 11 samples.

Results

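Genes that are widely used as markers of the epicardium and of cardiac fibroblasts, WT1, TBX18, TCF21, ALDH1A2, PDGFRA, PDGFRB, DCN, LUM and THY1 (9 genes), were followed through long-term culture of human stem cell-derived cardiomyocytes. The genes were chosen by name, with earlier results of these data known. All 9 of 9 were among the 19990 genes of the count table. The line was WTC11, a widely used human iPSC (induced pluripotent stem cell) line, at passage 63, and its cells were made into cardiomyocytes by activation and then inhibition of Wnt signalling with CHIR99021 and IWP2. Every group shared this line, this single differentiation and the maintenance in B27 medium with insulin, and the groups differed only in the day of collection: Day 30 (4 wells), Day 60 (3 wells) and Day 113 (4 wells). Replicates were wells of one differentiation, so p-values measure the spread between wells and cover neither another differentiation nor another line. Day of culture and day of collection cannot be told apart.

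The epicardium is the mesothelial sheet around the heart. During development some of its cells undergo an epithelial to mesenchymal transition, enter the heart wall and give rise to fibroblasts and mural cells. WT1, TBX18 and TCF21 are transcription factors of this lineage, and ALDH1A2 makes the retinoic acid that the epicardium secretes. PDGFRA and PDGFRB are receptor tyrosine kinases for platelet-derived growth factors, of which the first marks fibroblasts and the second marks mural cells and activated stroma. DCN (decorin) and LUM (lumican) are collagen-binding proteoglycans of the matrix, and THY1 (CD90) is a surface glycoprotein of stromal cells that neurons and some endothelial cells also carry.

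Library totals ran from 24071375 to 34546715 counts. Markers of the labelled cell type were abundant, and the 12 cardiomyocyte markers examined (among them TNNT2, MYH7 and TTN) summed to 33847 to 45604 CPM (read counts scaled to library size) at Day 30, 43044 to 48802 at Day 60 and 36912 to 41151 at Day 113. The 9 marker genes together summed to 304 to 409 CPM at Day 30, 338 to 382 at Day 60 and 370 to 549.7 at Day 113. Levels below are CPM with TMM scaling, and the ± on a log2 fold change is its standard error (SE). A gene is called changed where its adjusted p-value in edgeR's quasi-likelihood test, Benjamini-Hochberg adjusted over all 19990 genes, was below 0.05. In bulk RNA, fewer cells of a type and less RNA per cell cannot be told apart.

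All 9 genes differed between Day 30 and Day 113, and for all 9 the wells of these days did not overlap. WT1, TBX18, TCF21, PDGFRB, DCN and THY1 rose (6 of 9), and ALDH1A2, PDGFRA and LUM fell (3 of 9). Of all genes tested, 34.5% were called in this comparison, 17.3% higher and 17.2% lower, and the wells of 35.1% did not overlap. The median log2 fold change was 1.28 over the 9 genes and -0.02 over all genes. The change was at least 2-fold for 8 of the 9 (all but TBX18), against 13.2% of all genes. The 9 genes were chosen with earlier results of these data known, so these shares describe the set and do not test it. By Day 60, 4 of the 9 were called against Day 30, where 10.3% of all genes were. WT1 and PDGFRB were the 2 higher (4.39% of all genes) and PDGFRA and LUM the 2 lower (5.91%). From Day 60 to Day 113, 5 were called, where 24% of all genes were. WT1, TCF21, PDGFRB and THY1 were the 4 higher (12.9% of all genes) and PDGFRA the 1 lower (11.1%). In both intervals the genes called were also those whose wells did not overlap (24.8% of all genes in the first interval and 30.6% in the second). The joint test for any change over the 3 days called all 9, against 37.1% of all genes. The size of the change differed between the intervals for 3 (PDGFRA, LUM and THY1), against 9.34% of all genes. The second interval is the longer, and the change per day was not tested.

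**Figure D1:**
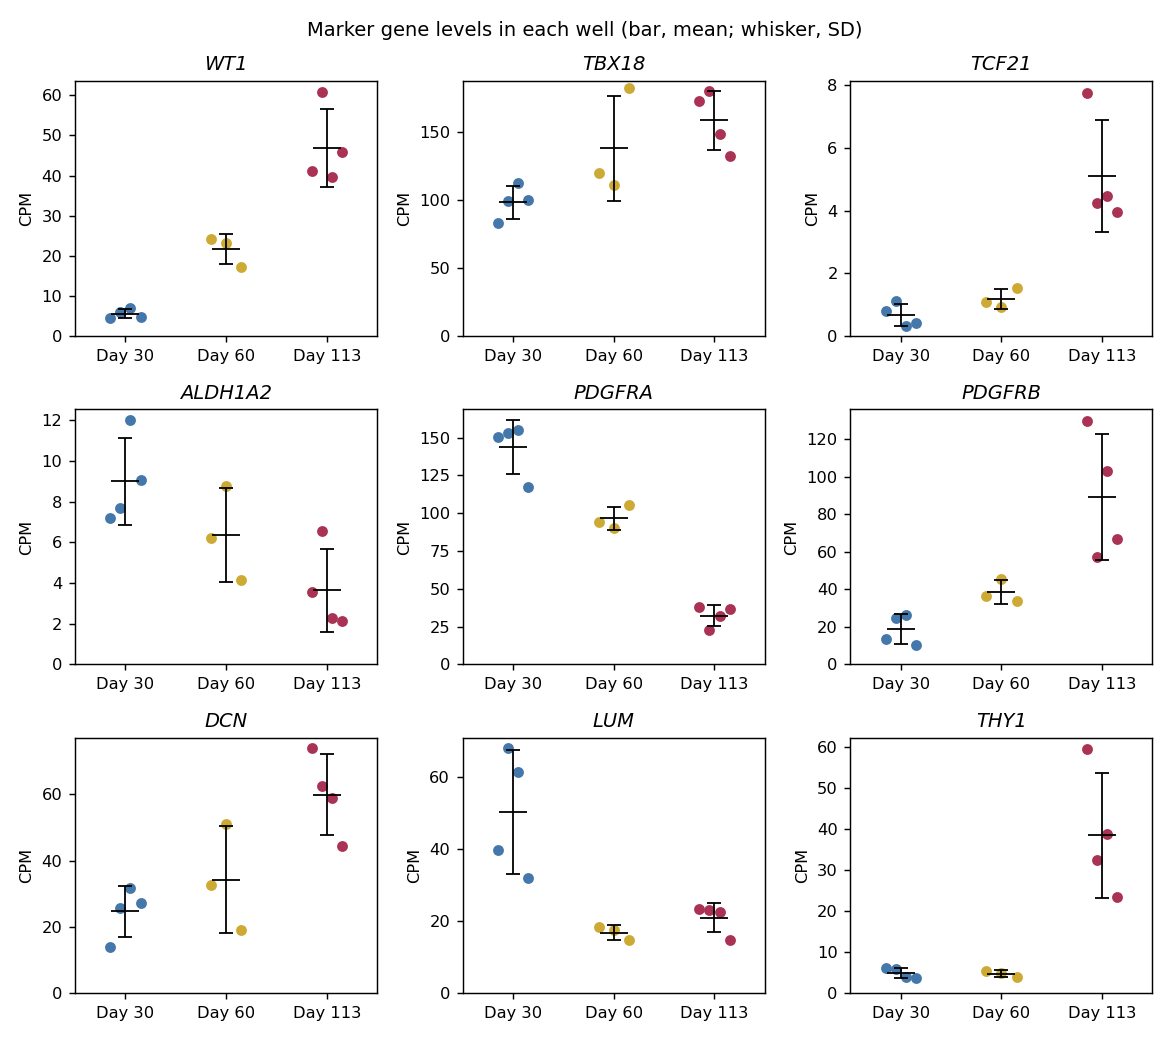
Level of each of the 9 marker genes in every well, in CPM, against day of collection (4, 3 and 4 wells). Points are wells, horizontal bars are means and whiskers are SD. The Day 30 and Day 113 wells are apart in every panel, upward in 6 and downward in 3.

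WT1, a zinc finger transcription factor of the epicardium, rose in both intervals. Its level was 4.58, 6.00, 6.98 and 4.78 CPM in the Day 30 wells, 24.3, 23.1 and 17.3 CPM at Day 60, and 41.2, 60.7, 39.6 and 45.9 CPM at Day 113. The wells of the 3 days formed separate ranges. The log2 fold change was 1.95 ± 0.19 (edgeR adjusted p 1.3e-05) from Day 30 to Day 60, 1.12 ± 0.18 (adjusted p 4.9e-04) from Day 60 to Day 113, and 3.07 ± 0.18 (adjusted p 1.3e-08) over the whole course, which is 8.37-fold. A difference between the intervals was not called (-0.83 ± 0.32 on the log2 scale, adjusted p 0.12), although it was without Day 113 replicate 2 (adjusted p 0.041). WT1 lies on chromosome 11 (32387775 to 32435630, minus strand, GRCh38), and 2.75% of its exon bases are shared with the antisense gene WT1-AS. WT1-AS itself averaged 0.924 CPM (SD 0.351), 5.82 CPM (SD 1.18) and 12.4 CPM (SD 2.20) at Days 30, 60 and 113, and rose by 3.73 ± 0.27 (edgeR adjusted p 8.0e-08) over the course. Whether the counting used strand is not given in the sources used here, so reads of the shared bases cannot be assigned to one partner.

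TBX18, a T-box factor of the epicardium and the sinus horns, was abundant from the start and rose the least of the 6. Its wells held 82.7, 98.9, 112 and 99.5 CPM at Day 30, 120, 111 and 182 CPM at Day 60, and 172, 180, 148 and 132 CPM at Day 113. The Day 60 wells reached into the ranges of both other days, and Day 60 replicate 3 stood just above the highest Day 113 well. The rise from Day 30 to Day 113 was 0.69 ± 0.15 (edgeR adjusted p 0.0020), or 1.61-fold. The changes of 0.49 ± 0.16 (adjusted p 0.064) in the first interval and 0.20 ± 0.16 (adjusted p 0.41) in the second did not pass. The first was called in 6 alternatives, among them DESeq2 (adjusted p 0.022) and the fit without Day 60 replicate 2 (adjusted p 0.035), and the second without Day 60 replicate 3 (0.44, adjusted p 0.041). The gene lies on chromosome 6 (84687351 to 84764519, minus strand).

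TCF21, a basic helix-loop-helix factor required for cardiac fibroblast development, was the rarest of the 9 at Days 30 and 60 and rose late. Its counts were 21, 33, 10 and 12 at Day 30, 34, 25 and 49 at Day 60, and 269, 113, 157 and 99 at Day 113. As CPM this was 0.329 to 1.10 at Day 30, 0.921 to 1.55 at Day 60 and 3.97 to 7.76 at Day 113, with Day 113 replicate 1 well above the other wells. The log2 fold change was 2.95 ± 0.42 (edgeR adjusted p 6.7e-05) over the course, 0.84 ± 0.44 (adjusted p 0.28) in the first interval and 2.11 ± 0.45 (adjusted p 0.0032) in the second. The difference between the intervals did not pass (1.26 ± 0.79, adjusted p 0.36). TCF21 lies on chromosome 6 (133889138 to 133895553, plus strand), and 30.4% of its exon bases are shared with TARID, a long noncoding RNA on the other strand. TARID held at most 5 counts in a Day 30 well, 7 to 17 at Day 60 and 6 to 38 at Day 113. TCF21 held more counts than TARID did at its highest in every Day 113 well.

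ALDH1A2, the main retinaldehyde dehydrogenase of the embryonic epicardium, fell. Its wells held 7.22, 7.71, 12.0 and 9.07 CPM at Day 30, 6.19, 8.77 and 4.13 CPM at Day 60, and 3.58, 6.56, 2.28 and 2.13 CPM at Day 113. The Day 60 wells overlapped both other days, and Day 113 replicate 2 held the highest level of its day. From Day 30 to Day 113 the gene fell by 1.31 ± 0.34 on the log2 scale (edgeR adjusted p 0.0068), a 2.48-fold fall. The interval values of -0.50 ± 0.36 (adjusted p 0.47) and -0.81 ± 0.36 (adjusted p 0.12) did not pass, and the second was called without Day 113 replicate 2 (-1.25, adjusted p 0.0099). ALDH1A2 lies on chromosome 15 (57953424 to 58497866, minus strand), and 2.42% and 4.11% of its exon bases are shared with 2 genes on the other strand.

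The other genes of the retinoic acid pathway did not move in one direction. Of 17 tested, 4 were higher and 4 lower at Day 113 than at Day 30, with a median log2 fold change of -0.26. Of all genes, 17.3% were higher and 17.2% lower, so these counts set the pathway little apart. ALDH1A3, a paralog that makes the same product, rose by 3.81 ± 0.44 (edgeR adjusted p 7.9e-06), reaching 6.15 ± 2.11 CPM (SD, n = 4) against 0.435 ± 0.258 CPM (SD, n = 4) at the start. The paralog ALDH1A1, which also stands in the list of epicardial markers, was not called (-0.26 ± 0.55, adjusted p 0.75), and its wells spread from 13.6 to 68.9 CPM at Day 30 alone. CYP26B1, which degrades retinoic acid, rose by 1.29 ± 0.31 (adjusted p 0.0040), and CYP26A1 was not called (-0.66 ± 0.65, adjusted p 0.48). CRABP2, which carries retinoic acid to the nucleus, rose by 1.56 ± 0.15 (adjusted p 9.1e-07) to 704 ± 134 CPM (SD, n = 4). RXRG, a retinoid X receptor, fell by 1.52 ± 0.17 (adjusted p 5.2e-06), and TTR (transthyretin), a plasma carrier of retinol-binding protein, fell by 4.37 ± 0.82 (adjusted p 6.4e-04).

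PDGFRA and PDGFRB moved in opposite directions and changed places. PDGFRA held 150.2, 153, 155 and 117 CPM in the Day 30 wells, 93.9, 90.5 and 105 CPM at Day 60, and 38.0, 22.5, 32.2 and 36.4 CPM at Day 113. Its 3 days formed separate, descending ranges. It fell by 0.57 ± 0.15 on the log2 scale (edgeR adjusted p 0.023) in the first interval, by 1.58 ± 0.15 (adjusted p 7.2e-06) after Day 60 and by 2.15 ± 0.15 (adjusted p 3.6e-08) from first to last day, a 4.45-fold fall. The fall was larger after Day 60 (difference between the intervals -1.00 ± 0.26, adjusted p 0.025), in the longer of the 2 intervals. The first-interval call was lost when any one of Day 30 replicates 1, 2 or 3 or of the 3 Day 60 wells was left out (adjusted p 0.060 to 0.11), and the interval difference was lost without Day 60 replicate 1 (0.079) or 3 (0.13). PDGFRA lies on chromosome 4 (54229097 to 54298247, plus strand), and 15.8% of its exon bases are shared with another annotated gene on its own strand, AC058822.1.

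PDGFRB held 13.4, 24.9, 26.4 and 10.5 CPM at Day 30, 36.4, 45.7 and 33.9 CPM at Day 60, and 130, 57.4, 103 and 66.7 CPM at Day 113. Its 3 days also formed separate ranges, in ascending order, with a 2.5-fold spread between Day 30 wells and a 2.26-fold spread between Day 113 wells. It rose by 1.04 ± 0.30 (edgeR adjusted p 0.036) in the first interval, by 1.21 ± 0.30 (adjusted p 0.0091) after Day 60 and by 2.25 ± 0.29 (adjusted p 2.2e-05) from first to last day, or 4.75-fold. The first of these calls was fragile. It was lost with robust dispersions (adjusted p 0.13), under DESeq2 (0.054) and without Day 30 replicate 1 (0.11) or 4 (0.085) or any one Day 60 well (0.062 to 0.12). The second was at the threshold with robust dispersions (0.0502). PDGFRB lies on chromosome 5 (150113837 to 150155872, minus strand).

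Within a library, the ratio of PDGFRB to PDGFRA counts needs no scaling between libraries. It was 0.0891, 0.163, 0.171 and 0.0902 in the Day 30 wells, 0.387, 0.505 and 0.322 at Day 60, and 3.42, 2.55, 3.20 and 1.83 at Day 113. PDGFRA thus had the more counts in all 7 wells of the first 2 days and PDGFRB in all 4 of the last. On the log2 scale the ratio averaged -3.03 (SD 0.52) over the 4 Day 30 wells, -1.33 (SD 0.33) over the 3 Day 60 wells and 1.42 (SD 0.41) over the 4 Day 113 wells. The differences of 1.70, 2.75 and 4.45 (first interval, second interval, whole course) each had a two-sided exact permutation p of 0.0286, the smallest this design allows, and 0.0343 after adjustment over 6 tests.

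The 4 PDGF ligands were measured in the same wells. PDGFD, a ligand of PDGFRB and the most abundant of the 4, fell by 0.79 ± 0.09 on the log2 scale (edgeR adjusted p 7.6e-06), ending at 206 ± 13.4 CPM (SD, n = 4) against an initial 355 ± 34.8 CPM (SD, n = 4). PDGFB, which endothelial cells use to recruit mural cells, fell by 1.70 ± 0.42 (adjusted p 0.017) by Day 60 and then rose by 2.97 ± 0.44 (adjusted p 2.1e-04) to 32.1 ± 11.2 CPM (SD, n = 4). PDGFA and PDGFC, ligands of PDGFRA, were not called from Day 30 to Day 113 (0.15 ± 0.15, adjusted p 0.50, and -0.23 ± 0.14, adjusted p 0.24). Of the 5 genes of this list, which also held PDGFRL, 1 was higher at Day 113 than at Day 30 (PDGFB, 1.27 ± 0.36, adjusted p 0.012, but 0.053 with robust dispersions) and 1 lower. The shares of all genes were 17.3% higher and 17.2% lower.

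Promoter sequence is shown for the receptors that moved apart and for 2 transcription factors that rose, so that their start regions can be compared. RefSeq (GRCh38.p14) gave 11 promoter windows for 6 of the 9 genes (all but DCN, LUM and THY1), each from 250 bases before to 50 bases after a start. The windows were searched on both strands for TATAAA (the TATA box), CCAAT (the site of NF-Y), GCGTGGG (bound by the WT1 and EGR zinc fingers), CATTCC (bound by TEAD factors), TGACTCA (bound by AP-1) and AGATAA (bound by GATA factors). Each window shown held 1 match. The sequences are the bases before the start that no annotated exon of the gene covers, 5′ to 3′ on the gene's strand, with motif matches in capitals.
PDGFRA, downstream start, chr4:54233710-54233959, plus strand: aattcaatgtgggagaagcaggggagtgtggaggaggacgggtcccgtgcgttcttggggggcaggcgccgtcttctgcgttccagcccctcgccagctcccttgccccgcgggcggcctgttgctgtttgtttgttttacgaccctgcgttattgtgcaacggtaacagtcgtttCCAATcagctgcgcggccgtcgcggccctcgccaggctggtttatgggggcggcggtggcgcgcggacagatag
PDGFRB, chr5:150155873-150156095, minus strand: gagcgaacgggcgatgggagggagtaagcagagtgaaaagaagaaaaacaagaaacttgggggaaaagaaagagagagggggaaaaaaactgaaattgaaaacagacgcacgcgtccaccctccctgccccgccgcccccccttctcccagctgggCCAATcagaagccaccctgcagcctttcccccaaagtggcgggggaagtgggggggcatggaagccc
TBX18, chr6:84764599-84764848, minus strand: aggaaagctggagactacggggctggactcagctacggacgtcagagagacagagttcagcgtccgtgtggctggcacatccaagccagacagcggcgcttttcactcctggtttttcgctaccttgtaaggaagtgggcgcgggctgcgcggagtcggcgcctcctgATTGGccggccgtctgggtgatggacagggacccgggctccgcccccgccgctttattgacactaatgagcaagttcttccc
TCF21, chr6:133888863-133889112, plus strand: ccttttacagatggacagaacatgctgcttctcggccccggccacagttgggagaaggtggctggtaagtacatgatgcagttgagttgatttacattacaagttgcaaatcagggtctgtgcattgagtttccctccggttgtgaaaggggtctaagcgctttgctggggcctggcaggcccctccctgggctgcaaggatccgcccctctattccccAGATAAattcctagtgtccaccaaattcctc
CCAAT, which is read on the opposite strand as ATTGG in TBX18, lay 74 bases before the start in PDGFRA, 94 in PDGFRB and 82 in TBX18. The same motif lay 62 bases before the upstream start of ALDH1A2. It thus occurred in the window of genes that rose and of genes that fell, and 34.6% of all 35116 windows of this length hold it. The AGATAA match in TCF21 lay 31 bases before the start, and 10.3% of all windows hold that motif. GCGTGGG occurred only in the upstream window of ALDH1A2, at 2 places, among the 11 windows searched, and in 6.98% of all windows.

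DCN and LUM are neighbours on chromosome 12 (91140484 to 91183123 and 91102629 to 91111831, both on the minus strand), and they moved in opposite directions. DCN held 13.9, 25.8, 31.7 and 27.2 CPM at Day 30, 32.6, 51.1 and 19.0 CPM at Day 60, and 74.0, 62.5, 59.0 and 44.2 CPM at Day 113. The Day 60 wells spread 2.69-fold and overlapped both other days. DCN rose by 1.28 ± 0.27 (edgeR adjusted p 0.0015) from Day 30 to Day 113, or 2.43-fold, with 0.47 ± 0.28 (adjusted p 0.36) in the first interval and 0.81 ± 0.29 (adjusted p 0.053) in the second. The second-interval value passed in 6 of 22 alternatives, among them limma-voom (0.93, adjusted p 0.019) and the fit without Day 60 replicate 2 (1.22, adjusted p 0.010).

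LUM held 39.6, 68.0, 61.2 and 31.9 CPM at Day 30, 18.3, 17.4 and 14.5 CPM at Day 60, and 23.4, 22.9, 22.3 and 14.8 CPM at Day 113. Every Day 30 well was above every later well, and the 2 later days overlapped. LUM fell by 1.58 ± 0.24 on the log2 scale (edgeR adjusted p 5.2e-04) by Day 60, did not change detectably after it (0.32 ± 0.23, adjusted p 0.35), and ended lower by -1.27 ± 0.21 (adjusted p 2.4e-04), a 2.41-fold fall. The change differed between the intervals (1.90 ± 0.42, adjusted p 0.011), but not without Day 60 replicate 3 (1.68, adjusted p 0.078).

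The log2 ratio of LUM to DCN counts averaged 1.02 (SD 0.58) over the 4 Day 30 wells, -0.92 (SD 0.59) over the 3 Day 60 wells and -1.52 (SD 0.12) over the 4 Day 113 wells. LUM had more counts than DCN in all 4 Day 30 wells and fewer in all 7 later wells. The differences of -1.95 in the first interval and -2.55 over the course had a two-sided exact permutation p of 0.0286 each (0.0343 adjusted over 6 tests). The second interval gave -0.60, with an exact permutation p of 0.0857, adjusted 0.0857.

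Of the other small leucine-rich proteoglycans, the family of DCN and LUM, 12 were tested. At Day 113, 8 of 12 were higher than at Day 30 and 0 were lower (17.3% and 17.2% of all genes). Their median log2 fold change was 3.09, and their summed level went from 52.3 to 61.6 CPM at Day 30 to 270.5 to 499 CPM at Day 113. Most of the rise in the sum came from BGN and ASPN, named after their values were seen. BGN averaged 10.3 CPM (SD 5.23) at Day 30 and 149 CPM (SD 87.0) at Day 113, and ASPN 5.44 CPM (SD 1.41) and 90.7 CPM (SD 8.52). Several of the list started near the floor, among them OMD (0.00859 CPM), ECM2 (0.184 CPM) and OPTC (0.227 CPM) at Day 30. OGN (osteoglycin) went through 0.378 ± 0.400 CPM (SD, n = 4), then 4.67 ± 1.18 CPM (SD, n = 3), then 33.9 ± 14.3 CPM (SD, n = 4), a log2 change of 6.44 ± 0.55 (edgeR adjusted p 3.6e-07) over the course. OPTC (opticin) rose by 4.74 ± 0.99 (edgeR adjusted p 0.0016) to 6.12 ± 5.34 CPM (SD, n = 4), a call that limma-voom did not make (adjusted p 0.086). LUM thus fell while none of the 12 other members tested was called lower.

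THY1 changed after Day 60 and not before it. Its wells held 5.96, 5.80, 3.95 and 3.54 CPM at Day 30, 5.36, 4.90 and 3.79 CPM at Day 60, and 59.4, 32.4, 38.7 and 23.3 CPM at Day 113. The first 2 days overlapped throughout, and the lowest Day 113 well stood far above both. The log2 fold change was -0.04 ± 0.28 (edgeR adjusted p 0.96) in the first interval and 3.04 ± 0.30 (adjusted p 8.2e-06) after Day 60, and these values differed by 3.08 ± 0.53 (adjusted p 0.0022). Over the whole course THY1 rose by 3.00 ± 0.26 (adjusted p 5.4e-07), or 8.00-fold. THY1 lies on chromosome 11 (119417378 to 119424985, minus strand), and 10.7% of its exon bases are shared with a gene on the other strand, AP003396.5.

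The markers of other cell types that carry THY1 were read in the same wells. All 12 of 12 endothelial markers tested rose from Day 60 to Day 113, where 12.9% of all genes did. All 12 were also above Day 30 (median log2 fold change 2.34), where 17.3% of all genes were. None was at 0 in every well of a day, although CLEC14A held only 0 to 4 counts a well at Day 60. Their summed level was 84.4 to 122 CPM at Day 30, 53.3 to 87.3 CPM at Day 60, and 1001, 462, 495 and 264 CPM in Day 113 replicates 1 to 4. VWF (von Willebrand factor) reached 52.9 ± 44.4 CPM (SD, n = 4), up 5.17 ± 0.68 (edgeR adjusted p 2.7e-05), and CLDN5, a tight junction protein, 39.0 ± 21.6 CPM (SD, n = 4), up 4.53 ± 0.47 (adjusted p 3.0e-06). The order of the Day 113 wells by this sum (replicates 1, 3, 2 and 4) was the order of THY1. The sums of the fibroblast markers (19660, 9965, 16166 and 8531 CPM in replicates 1 to 4), of the mural markers (1804, 1488, 1506 and 1150 CPM) and of the other small leucine-rich proteoglycans (499, 276, 356 and 270.5 CPM) gave the same order. The remaining lists gave other orders. The sum of the other stromal surface markers was 1327, 1045, 1173 and 1046 CPM in Day 113 replicates 1 to 4. That of the neural markers was 48.9, 52.0, 59.9 and 52.7 CPM. Library totals (34546715, 27036505, 34436423 and 24071375 counts in replicates 1 to 4) also had the order of THY1. The part of library depth in this order was not tested. The part of RNA from endothelial, fibroblast or mural cells in the THY1 rise was not tested either. The 9 neural markers tested summed to 51.9 to 76.1 CPM at Day 30 and 48.9 to 59.9 CPM at Day 113, with 0 higher and 2 lower (1 to 4 under alternatives), of which SNAP25, a synaptic protein, was at the threshold (-0.46 ± 0.17, adjusted p 0.0499). Of 6 other stromal surface markers, 1 was higher (ENG, endoglin, by 0.94 ± 0.18, edgeR adjusted p 7.6e-04) and 2 were lower (VCAM1 by -0.63 ± 0.14, adjusted p 0.0026, and ALCAM by -0.44 ± 0.11, adjusted p 0.0047). Beside the neural and stromal counts, 17.3% of all genes were higher and 17.2% lower.

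**Figure D2:**
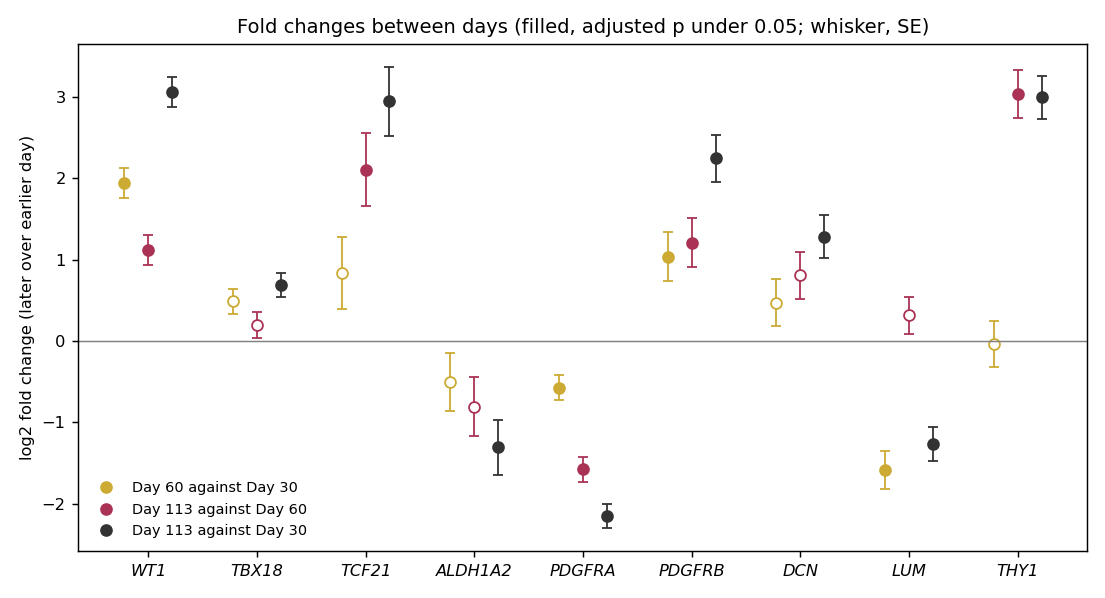
Log2 fold change of each of the 9 marker genes between pairs of days, with SE whiskers, from edgeR's quasi-likelihood fit over 11 libraries. Filled points have an adjusted p under 0.05. PDGFRA lies below 0 and PDGFRB above 0 in all 3 comparisons, LUM has its fall before Day 60, and THY1 has its rise after Day 60.

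The rise of WT1, TBX18 and TCF21 was set against other markers of the epicardium and its mesothelium, which did not rise as a list. Of 16 tested, 1 was higher and 6 were lower at Day 113 than at Day 30 (17.3% and 17.2% of all genes). The median log2 fold change of the list was -0.73, and its sum went from 782 to 1127 CPM at Day 30 to 231 to 374 CPM at Day 113. Most of the fall in the sum came from KRT19, an epithelial keratin named after its values were seen, which averaged 634 CPM (SD 103) at Day 30 and 117 CPM (SD 52.1) at Day 113. ITLN1 (intelectin 1, a lectin of omental and epicardial mesothelium) rose by 2.76 ± 0.45 (edgeR adjusted p 1.9e-04) to 14.2 ± 5.48 CPM (SD, n = 4). KRT7, an epithelial keratin, fell by 4.61 ± 0.60 (adjusted p 2.4e-05), ending at 1.48 ± 1.58 CPM (SD, n = 4) against an initial 36.7 ± 17.0 CPM (SD, n = 4). GATA5, a zinc finger factor of the early epicardium and endocardium, fell by 3.20 ± 0.20 (adjusted p 1.5e-08), and stood at 2.22 ± 0.526 CPM (SD, n = 4) after 20.6 ± 3.06 CPM (SD, n = 4).

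Of 12 tested transcription factors of the epithelial to mesenchymal transition and of epicardium-derived cells, 11 were called from Day 30 to Day 113. At the later day 7 were higher and 4 lower (17.3% and 17.2% of all genes). PRRX1, a homeobox factor of mesenchyme, rose by 1.63 ± 0.15 (edgeR adjusted p 1.1e-05) by Day 60 and was not called after it (0.07 ± 0.15, adjusted p 0.79). SNAI2 rose by 1.84 ± 0.38 (adjusted p 0.0013) over the course. TWIST1 fell by 1.22 ± 0.22 (adjusted p 4.8e-04). TBX20, a T-box factor that cardiomyocytes also express, fell by 0.46 ± 0.14 (adjusted p 0.019), a call lost without Day 30 replicate 1 (0.067) or 4 (0.051).

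Most fibroblast markers outside the 9 genes were not called by Day 60, although their summed level fell. More of them rose than fell after Day 60. Of 25 tested, 7 fell (5.91% of all genes did), 1 rose (4.39%) and 17 were not called by Day 60. From Day 60 to Day 113, 15 rose and 3 fell (12.9% and 11.1% of all genes). The median log2 fold changes were -0.08 and 1.35. Their sum was 8981 to 21423 CPM at Day 30, 4757 to 6836 CPM at Day 60 and 8531 to 19660 CPM at Day 113. Most of the fall in the sum came from FN1 (fibronectin), named after its values were seen. It averaged 6992 CPM (SD 3153) at Day 30 and 625 CPM (SD 111) at Day 60. From Day 30 to Day 113, 11 were higher and 6 lower (17.3% and 17.2% of all genes). CD34, which marks fibroblast and endothelial progenitors, rose by 3.69 ± 0.39 (edgeR adjusted p 3.6e-06) to 48.0 ± 31.8 CPM (SD, n = 4), and FAP (fibroblast activation protein) by 3.01 ± 0.65 (adjusted p 0.0019) to 5.75 ± 1.99 CPM (SD, n = 4). FBLN1 (fibulin 1) fell by 2.87 ± 0.33 (adjusted p 7.0e-06) and MFAP5, a microfibril protein, by 2.51 ± 0.51 (adjusted p 0.0012). Mural and smooth muscle markers, which are relevant to PDGFRB, had 5 of 11 genes higher and 1 lower (17.3% and 17.2% of all genes). Among them ACTA2 (smooth muscle actin, which immature cardiomyocytes also express) rose by 1.76 ± 0.15 (adjusted p 3.4e-07) and ABCC9, a channel subunit of pericytes and cardiomyocytes, by 1.91 ± 0.21 (adjusted p 4.1e-06). Markers of pluripotent cells (0 of 3 higher, 2 lower) and of immune cells (0 of 3 higher, 1 lower, and 0 to 1 called under alternatives) summed to at most 19.3 and 4.94 CPM in any well, and TDGF1, a pluripotency gene, fell by 2.96 ± 0.32 (edgeR adjusted p 3.9e-06). Among the cardiomyocyte markers, 4 of 12 were higher and 2 lower, against the same shares of all genes. They were led by MYL2 (ventricular myosin light chain, 2.32 ± 0.21, adjusted p 6.0e-07) and NPPA (natriuretic peptide A, 2.31 ± 0.21, adjusted p 6.6e-07) upward and by MYH7 (-0.73 ± 0.13, adjusted p 5.2e-04) and ACTN2 (-0.64 ± 0.11, adjusted p 4.0e-04) downward.

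**Figure D3:**
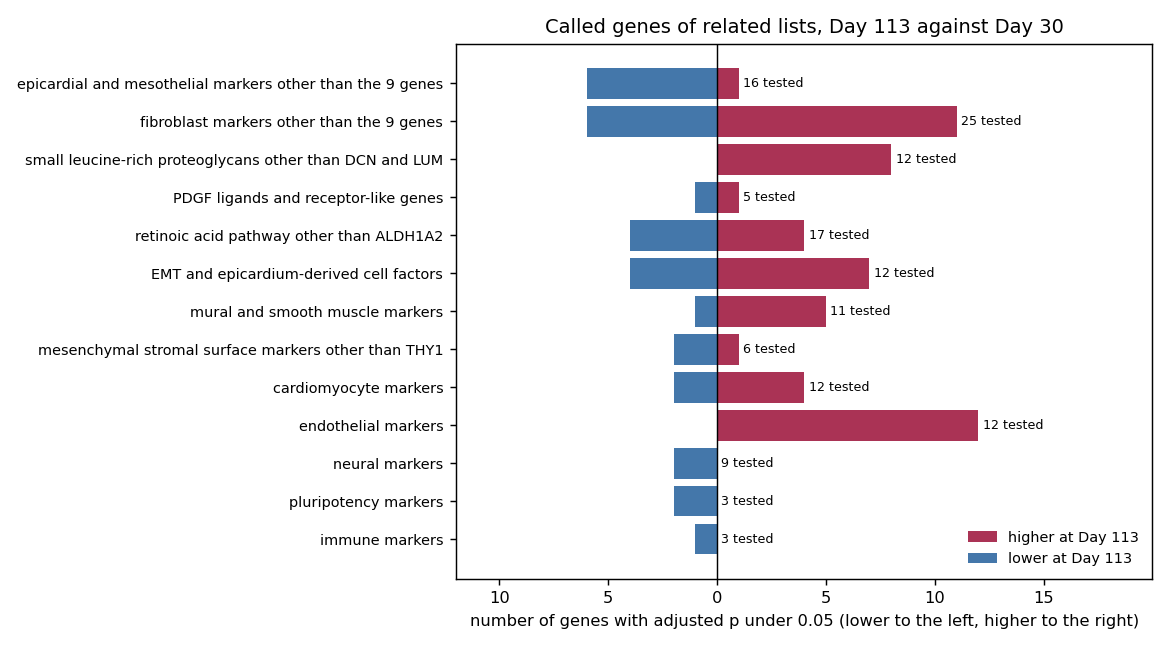
Number of genes in 13 related lists called higher (right) or lower (left) at Day 113 than at Day 30 (edgeR adjusted p under 0.05), with the number tested beside each bar. The endothelial and proteoglycan lists have bars to the right only, and the epicardial and mesothelial list lies mainly to the left.

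Compared per kilobase of annotated exon, the order of the 9 genes changed between days. At Day 30, LUM (16.7 ± 5.71 CPM per kilobase, SD, n = 4), PDGFRA (14.8 ± 1.83) and TBX18 (11.6 ± 1.43) stood above the other 6, of which the highest was PDGFRB (2.63 ± 1.12). LUM overlapped PDGFRA and TBX18 in its wells. At Day 113, TBX18 (18.7 ± 2.60), PDGFRB (12.5 ± 4.70) and WT1 (11.4 ± 2.34) led, with PDGFRB overlapping both of its neighbours. LUM (6.93 ± 1.36), THY1 (6.49 ± 2.59) and DCN (4.67 ± 0.956) followed, and then PDGFRA (3.32 ± 0.715), each overlapping the gene before it except LUM, of which no well reached the lowest WT1 well. THY1, with wells up to 10.0 CPM per kilobase, also overlapped WT1 and PDGFRB. TCF21 (1.12 ± 0.391) and ALDH1A2 (0.422 ± 0.238) were last. The lengths are the union of all annotated exons and so understate genes with many alternative exons, such as DCN.

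Wells of one day did not share one ranking over the 9 genes. At Day 113, replicate 1 was the highest well for 6 of the 9 (TCF21, PDGFRA, PDGFRB, DCN, LUM and THY1) and replicate 4 the lowest for 6, while replicate 2 was the highest for WT1, TBX18 and ALDH1A2. PDGFRA and PDGFRB, which moved apart between days, were thus highest in the same Day 113 well. The cardiomyocyte sum ranged only from 36912 to 41151 CPM over these 4 wells, and the sum of the 25 fibroblast markers from 8531 to 19660 CPM, with replicates 1 and 3 highest. At Day 30, LUM and PDGFRB were highest in replicates 2 and 3 (68.0 and 61.2, and 24.9 and 26.4 CPM), the wells in which the fibroblast marker sum was also highest (21423 and 18545 CPM, against 12303 and 8981 CPM). WT1 and, by a small margin, PDGFRA were also highest in these wells. TBX18, ALDH1A2 and DCN were highest in replicates 3 and 4, and TCF21 and THY1 in replicates 1 and 2. The part of these well differences in the day comparisons was not tested beyond leaving out each well, under which all 9 genes kept their call and direction from Day 30 to Day 113.

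**Figure D4:**
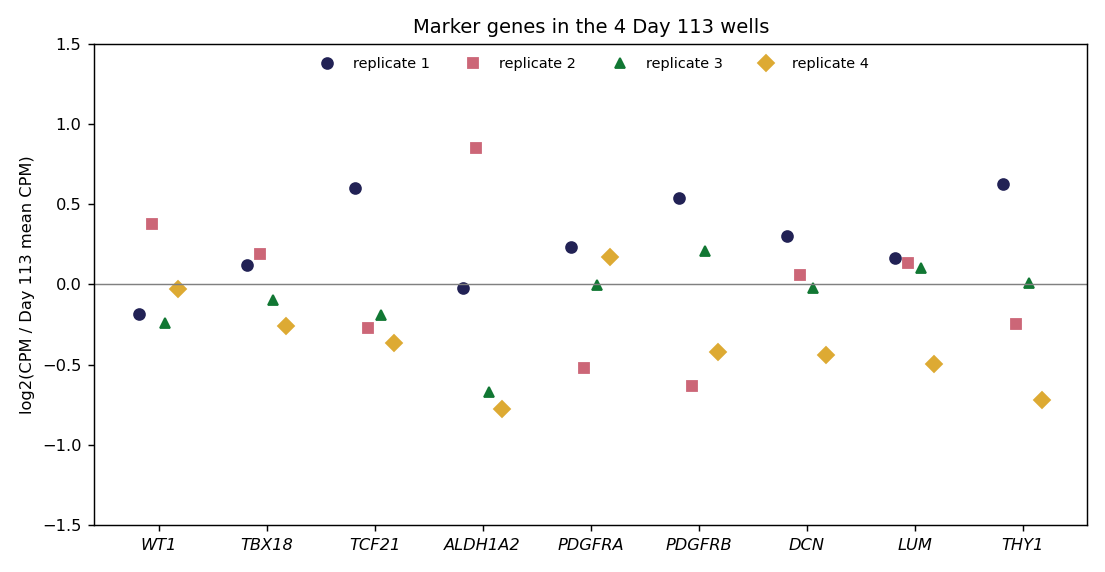
Each of the 9 marker genes in the 4 Day 113 wells, as log2 of the well's CPM over the mean CPM of the day. Replicate 1 is highest for 6 genes, replicate 4 lowest for 6, and replicate 2 highest for WT1, TBX18 and ALDH1A2.

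The genes whose profiles over the 11 libraries were most like each marker were taken as the 3 with the highest Pearson correlation of log2 CPM among 15554 genes with a mean of at least 1 CPM. All points share the 3 days, so these values describe the shape over days and have no p. WT1 was followed most closely by GPX3 (0.990), ASPN (0.987), itself a small leucine-rich proteoglycan, and C1QL1 (0.985). PDGFRA was followed by FAM184A (0.995), MMD (0.994) and ENTPD4 (0.987), and PDGFRB by FAM111A (0.981), SGCD (0.980) and BTN3A2 (0.978). LUM was followed by TGFBI (0.988), a secreted matrix protein, ZDHHC18 (0.983) and P4HB (0.982), and DCN by NOL12 (0.957), FBLN5 (0.941) and SFMBT2 (0.939). THY1 was followed by GNG2 (0.990) and CXCR4 (0.987), and TCF21 by IKBKG (0.972), PTX3 (0.964) and GJD2 (0.963). The closest for TBX18 were RAB2A (0.945), NIF3L1 (0.930) and CCDC66 (0.924), and for ALDH1A2 they were LOC105370910 (0.956), LOC105375634 (0.943) and RMND1 (0.941). None of the 9 genes was among the 3 closest of another.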

How the data were processed

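Poly(A) RNA of 11 wells was sequenced as paired-end 150-base reads, per the labels' protocols. The authors deposited raw read counts per gene symbol. The submitters' processing notes name STAR 2.5.3a, featureCounts 2.0.3 and hg38, and the annotation and strand setting are not given in the sources used here. The authors also deposited TPM values. The gene lengths implied by count over TPM were unrelated between libraries (median Spearman rho -0.0011 over 55 library pairs), so TPM was not used.

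Groups were taken from the sample titles. Counts were tested with edgeR 4.0.16 in R 4.3.3 (TMM, filterByExpr with a minimum count of 10, which kept all 19990 genes, glmQLFit and glmQLFTest, day as the only factor, 11 libraries in one fit). SE is the absolute log2 fold change over the square root of F. On simulated data for Day 113 against Day 30 (19990 genes), 94% of 4-fold and 67% of 2-fold changes were called. Only 200 genes, all with a mean of at least 1 CPM, were changed in the simulation. In the data 34.5% of all genes were called, so these rates need not carry over. Ratios used log2 counts with a pseudocount of 0.5. Alternatives were RLE, upper-quartile and no scaling, DESeq2 1.42.0, limma-voom 3.58.1, robust dispersions, other filters, fits of 2 days, a threshold of 0.01, a replicate block and leaving out each well. Exons are those of GENCODE release 29 (GRCh38).

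Wells of a day differed by more than sampling noise (chi-square per degree of freedom 11.7 to 88.7). The 9 genes and the 13 lists were chosen with earlier results of these data known. Named list genes were the 2 highest and 2 lowest called from Day 30 to Day 113 with at least 5 CPM in the higher day, plus PDGF ligands and ALDH1A and CYP26 genes. One gene that the rule for similar profiles selected is not reported here.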

Additional observations from a re-analysis of the deposited data

Results flagged for a closer look

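In groups of 4 wells, a well was marked where its gap to the nearest other well, divided by the range of the group, exceeded Dixon's 95% critical value. Of 96 groups examined, 4 held such a well, and chance marks about 1 in 20. TCF21 was at 7.76 CPM in Day 113 replicate 1, against 3.97 to 4.48 CPM in the other 3 wells. PDGFRA was at 117 CPM in Day 30 replicate 4, against 150.2 to 155 CPM. LUM was at 14.8 CPM in Day 113 replicate 4, against 22.3 to 23.4 CPM. TBX20 was at 327 CPM in Day 113 replicate 2, against 486 to 519 CPM.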

How the results depend on the processing

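From Day 30 to Day 113, all 9 genes kept their direction and call under all 22 alternatives. Over the 36 fold changes of the 9 genes (3 pairs of days and the interval difference), 737 of 783 alternative values kept direction and side of the threshold, 21 lost the call, 15 gained it and 10 changed sign, and none of the 10 was of a called value. At an adjusted p-value under 0.01, the first interval gave 2 of the 9 genes and the interval difference 1, and over all genes the counts were 937 (first interval), 2545 (second), 4552 (whole course) and 618 (interval difference). Leaving out 1 well gave 2 to 5 of the 9 genes in the first interval (2 without Day 30 replicate 1 or Day 60 replicate 1 or 3) and 1 to 4 for the interval difference (1 without Day 60 replicate 3), and over all genes 1220 to 2618 and 643 to 2221. Signs changed, leaving out 1 well, for THY1 in the first interval (-0.16 to 0.12), for the interval difference of PDGFRB (-0.064 to 0.45), ALDH1A2 (-0.81 to 0.30), TBX18 (-0.55 to 0.19) and DCN (-0.28 to 1.15), and for ALDH1A1 over the course (-0.71 to 0.22); the cause was not tested. The PDGFRB to PDGFRA ratio kept its direction at 1.53 to 1.86, 2.59 to 2.93 and 4.30 to 4.63 (first interval, second interval, whole course), and LUM to DCN at -2.22 to -1.63, -0.92 to -0.33 and -2.81 to -2.38. With a well fewer, the exact permutation test has fewer splits, and adjusted p-values of the called ratio differences ran from 0.0429 to 0.12. With the replicate number as a block, 4, 6 and 9 of the 9 genes were called in the 3 pairs of days (2474, 4954 and 7143 of all genes). The gain was DCN in the second interval (0.90, adjusted p 0.038). Same-numbered wells correlated in their deviations by 0.023 to 0.076 (median 0.045), against a median of -0.023 between other numbers, and 9 of 11 wells correlated best with their own number, a hint from the data of a small shared effect. Deviations were taken from the day mean and cancel within a day. The negative median between other numbers is therefore partly set by the calculation. The labels tie nothing but the number to these wells, and no correlation passed 0.1, so the numbers were not treated as pairs. A fit of 2 days alone gives no interval difference. Depth limits TCF21 most, with 10 to 33 counts a well at Day 30.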
